A study of Mus musculus with 6 samples.

Results

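The CXC chemokines described here are 8 genes, Cxcl1, Cxcl2, Cxcl3, Cxcl9, Cxcl10, Cxcl11, Cxcl14 and Cxcl16, taken by their symbols from the 19309 genes of a count table of macrophage transcripts. They fall into 3 groups: 3 neutrophil-attracting genes (Cxcl1, Cxcl2 and Cxcl3), 3 interferon-induced genes (Cxcl9, Cxcl10 and Cxcl11) and 2 genes in neither group (Cxcl14 and Cxcl16). The RNA came from M2c macrophages of 3 wild-type mice and 3 sEH-/- mice, which lack the soluble epoxide hydrolase (sEH) encoded by Ephx2, and the comparison asked which transcripts depended on the presence of the enzyme. In both genotypes, bone marrow monocytes spent 7 days in medium with M-CSF and GM-CSF, were polarized towards M1 with LPS and murine IFN-γ for 24 h, and were then moved to the M2c state with TGF-β1 for 48 h, by the times the sample labels give. The methods of the study give a shorter M1 step and list a shorter time in TGF-β1 beside the longer one. All 6 cultures had therefore met LPS and IFN-γ, classical inducers of the neutrophil-attracting and the interferon-induced members, before TGF-β1, and no library of untreated or M1 cells was analysed here to set a starting level. The deletion was constitutive and present in all cells of the mice, which were young adults by the study's methods. The study moved to female mice for its later experiments, while the labels give no sex for the mice behind each library.

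CXC chemokines are small secreted proteins that direct leukocyte migration. Cxcl1, Cxcl2 and Cxcl3 carry the ELR motif, act on Cxcr2 on neutrophils and are induced quickly by NF-κB downstream of Toll-like receptors and interleukin 1. Cxcl9, Cxcl10 and Cxcl11 act on Cxcr3 on T cells and NK cells, and are induced by interferons, with NF-κB also acting on Cxcl10. Cxcl16 is made as a membrane protein, shed by Adam10 and bound by Cxcr6, while Cxcl14 is a constitutively made chemokine of epithelia and other tissues.

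The 3 neutrophil-attracting genes were higher in sEH-/- macrophages by 3.06-fold to 5.15-fold. The interferon-induced genes did not behave as a group: Cxcl10 was 13.7-fold higher, Cxcl11 was higher from a level close to 0, and Cxcl9, whose transcript was far more abundant, had a log2 fold change of -0.25. The fold change of Cxcl14, 1.31, fell short of the threshold, and Cxcl16 did not pass the test. A gene was called at a Benjamini-Hochberg adjusted p below 0.05 over all 13785 genes tested and a fold change above 1.5 in either direction. By that rule 5 of the 8 members were called, all of them higher in sEH-/-, whereas 2.61% of all genes tested were called in either direction and 1.51% were called higher. Cxcl11 passed the filter on low counts only through the sEH-/- libraries, and of the other 7 members 4 were called. Every sEH-/- library lay above every wild-type library for 6 members, an arrangement found in 11.8% of all genes tested, and below every wild-type library for 1 member, an arrangement found in 14.5%.

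**Figure D1:**
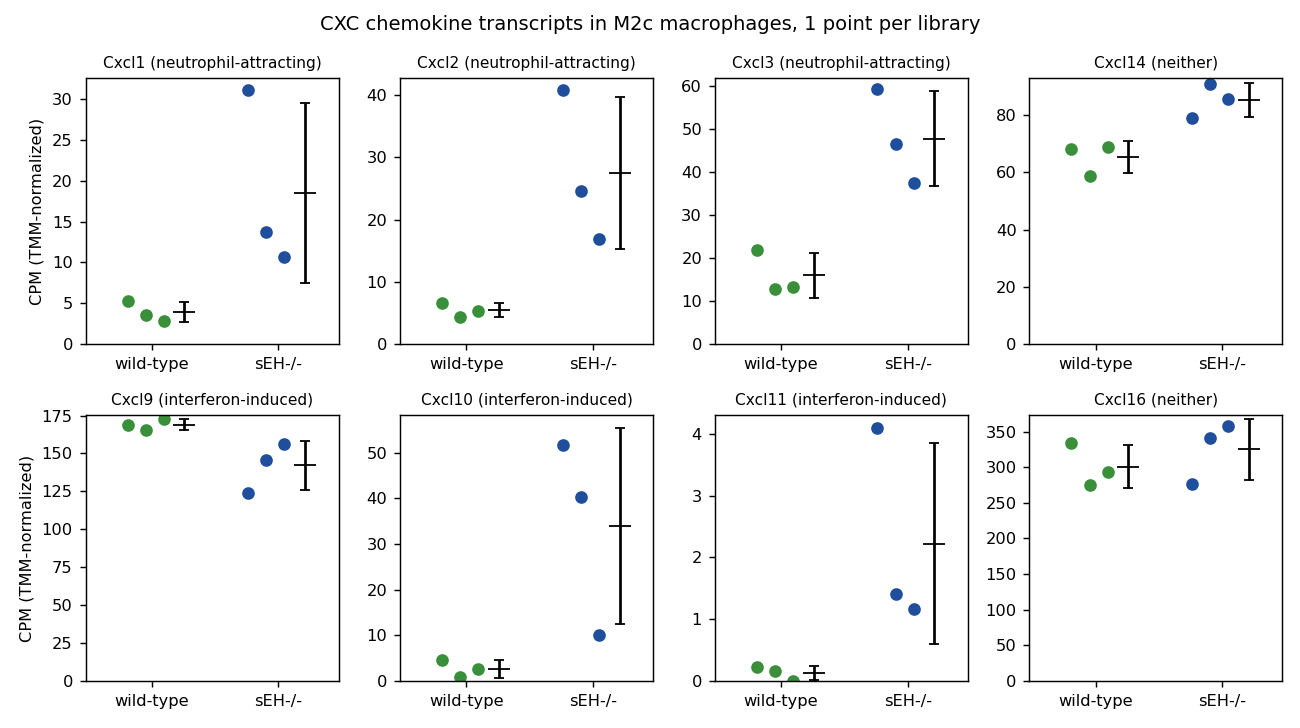
CPM (counts brought to the same total per library with TMM factors, linear axes from 0) of each of the 8 chemokine genes, with 1 point per library and bars for the mean and SD of the 3 libraries of a genotype. Cxcl10 runs from 9.95 to 51.6 in sEH-/- and from 0.81 to 4.61 in wild-type libraries, while Cxcl9 runs from 124 to 156 and from 166 to 173.

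The libraries held between 4400197 and 6096440 counts, and each library came from 1 mouse. Ephx2 itself had 4, 2 and 1 counts in sEH-/- replicates 1, 2 and 3 against 26, 49 and 57 in wild-type, so that the labels matched the deleted gene. Its summed level in sEH-/- was 5.72% of that in wild-type (exact 95% interval 2.25% to 12.1%, counting error only). Macrophage markers were abundant in all 6 libraries, with 7 of 7 genes found, led by Csf1r and Adgre1. They summed to 1799 to 2249 CPM in sEH-/- and 1618 to 2039 CPM in wild-type. Of the 7, 0 were called by edgeR, DESeq2 or limma-voom, with 2 at an unadjusted p below 0.05. Some of these counts hardly followed the library totals: Lyz2 had 1153 to 1173 counts per library and Cd68 had 1082 to 1159. Removal of duplicate reads may flatten such counts, so the absence of calls says little about the share of macrophages. Of 10 neutrophil markers, 7 were in the table and their sum was 325 to 413 CPM in sEH-/- and 293 to 352 CPM in wild-type, most of it from Mmp8. The neutrophil markers S100a9, Elane, Ltf and Camp had at most 10 counts in any library. S100a8 had 140, 147 and 117 counts in sEH-/- against 78, 112 and 112 in wild-type (log2 fold change 0.54, adjusted p = 0.057), and Csf3r, the G-CSF receptor, had a log2 fold change of 0.84 (adjusted p = 0.0687, edgeR's quasi-likelihood test). Csf3r was the 1 neutrophil marker that DESeq2 called, and 0 were called by edgeR, with 2 of the 3 tested at an unadjusted p below 0.05. The part of these cells in the chemokine levels was not tested. Dendritic cell markers (4 of 6 in the table, led by Clec9a and Zbtb46) summed to 27.0 to 57.6 CPM in sEH-/- and 42.1 to 58.8 CPM in wild-type, with a median log2 fold change of -0.31. The 6 stromal markers, led by Col1a2 and Col1a1, summed to 14.4 to 30.1 and 11.6 to 62.2 CPM, with a median of -0.015. In each of these lists 0 genes were called by edgeR, DESeq2 or limma-voom, and 1 had an unadjusted p below 0.05. In bulk RNA, a change in the share of cells that make a transcript and a change in its amount per cell cannot be told apart.

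Cxcl3, Cxcl1 and Cxcl2 lie in this order on the plus strand of mouse chromosome 5 (mm10), within a stretch of 119836 bp. Most of that stretch separates Cxcl3 from Cxcl1. The related ligands Cxcl5, Ppbp and Pf4 lie just upstream of Cxcl3. Cxcl3 spans bases 90786103 to 90789600, Cxcl1 bases 90891241 to 90893115 and Cxcl2 bases 90903871 to 90905938. Their promoters were read because they show what the 3 called genes share at the start of transcription: each holds the same run of 11 bases that matches the κB consensus, the site bound by NF-κB dimers. The 250 bases before the RefSeq start (GRCm38.p6) are given from 5′ to 3′ on the strand of the gene, with the matched bases in capitals. They cover chr5:90890995-90891244 for Cxcl1, chr5:90903649-90903898 for Cxcl2 and chr5:90785851-90786100 for Cxcl3, all on the plus strand.
Cxcl1: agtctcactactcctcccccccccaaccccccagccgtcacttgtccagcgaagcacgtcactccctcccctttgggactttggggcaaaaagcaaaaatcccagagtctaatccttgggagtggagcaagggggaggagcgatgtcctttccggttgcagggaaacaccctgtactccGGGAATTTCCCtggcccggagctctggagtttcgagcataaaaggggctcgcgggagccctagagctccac
Cxcl2: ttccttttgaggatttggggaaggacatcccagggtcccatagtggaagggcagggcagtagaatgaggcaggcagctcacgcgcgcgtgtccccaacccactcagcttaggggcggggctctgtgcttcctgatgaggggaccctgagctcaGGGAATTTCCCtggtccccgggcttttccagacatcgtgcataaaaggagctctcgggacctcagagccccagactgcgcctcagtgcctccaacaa
Cxcl3: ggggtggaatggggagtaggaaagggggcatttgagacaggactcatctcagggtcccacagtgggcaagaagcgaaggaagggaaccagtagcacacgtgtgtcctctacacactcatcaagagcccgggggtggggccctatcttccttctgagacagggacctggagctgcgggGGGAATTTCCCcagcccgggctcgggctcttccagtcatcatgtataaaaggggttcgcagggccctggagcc
The matched run ended 61 bases before the start in Cxcl1, 87 bases before it in Cxcl2 and 63 bases before it in Cxcl3. Because the run reads nearly the same on both strands, it counts as 2 overlapping matches of the 10-base consensus in each promoter. A match on either strand was found in 2382 of the 32851 mouse promoters of this length, or 7.25%. A match describes the letters and does not show that the site was bound.

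Cxcl1, also called KC, had 182, 68 and 46 counts in sEH-/- replicates 1, 2 and 3 and 24, 22 and 16 counts in the wild-type replicates. In CPM these were 31.1, 13.7 and 10.6 against 5.27, 3.56 and 2.86. The lowest sEH-/- library lay well above the highest wild-type library, and sEH-/- replicate 1 stood above the other two of its genotype. The means were 18.5 ± 11.02 and 3.90 ± 1.24 CPM (SD, n = 3), with a log2 fold change of 2.29 (SE 0.42, 95% interval 1.36 to 3.21, adjusted p = 0.0244, edgeR's quasi-likelihood test). Without sEH-/- replicate 1 the log2 fold change was 1.67 and the call remained (adjusted p = 0.0213, same edgeR test), whereas it was lost when wild-type replicate 2 (adjusted p = 0.122) or wild-type replicate 3 (adjusted p = 0.133) was left out.

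Cxcl2, also called MIP-2, differed from Cxcl1 little in its log2 fold change, and which of the pair was higher changed when single libraries were left out. It had 239, 122 and 73 counts in sEH-/- against 30, 27 and 30 in wild-type, or 40.8, 24.6 and 16.9 against 6.58, 4.37 and 5.37 CPM. The genotypes did not overlap, and the wild-type libraries lay close together while the sEH-/- libraries spread 2.42-fold from lowest to highest. The means were 27.4 ± 12.2 and 5.44 ± 1.11 CPM (SD, n = 3), with a log2 fold change of 2.37 (SE 0.32, 95% interval 1.65 to 3.08, adjusted p = 0.0107, edgeR).

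Cxcl3 was the most abundant of the neutrophil-attracting genes in wild-type cells and had the smallest of the 3 log2 fold changes. Its counts were 348, 231 and 162 in sEH-/- against 100, 79 and 74 in wild-type, or 59.4, 46.5 and 37.5 against 21.9, 12.8 and 13.2 CPM. Here too the sEH-/- libraries all exceeded the wild-type libraries. The means were 47.8 ± 11.02 and 16.0 ± 5.16 CPM (SD, n = 3), with a log2 fold change of 1.61 (SE 0.22, 95% interval 1.12 to 2.10, adjusted p = 0.0107, edgeR). The 95% intervals of the 3 log2 fold changes overlapped, and their differences were not tested.

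The ratios among the 3 genes were examined because sequencing depth cancels within a library. Cxcl1 stood at 76.2, 55.7 and 63.0 counts per 100 counts of Cxcl2 in sEH-/- against at 80.0, 81.5 and 53.3 in wild-type, which overlapped. Cxcl2 stood at 68.7, 52.8 and 45.1 counts per 100 of Cxcl3 in sEH-/- against at 30, 34.2 and 40.5 in wild-type. These did not overlap between genotypes, but the exact 95% counting intervals of the nearest libraries did (33.7 to 59.8 in sEH-/- replicate 3 and 25.6 to 62.7 in wild-type replicate 3). The order of the sEH-/- libraries was the same for all 3 genes, replicate 1 above replicate 2 above replicate 3, and their summed level was 131, 84.8 and 65.0 CPM against 33.8, 20.7 and 21.5 CPM in wild-type. That order is also the order of the library totals in sEH-/- (5818444, 5013265 and 4400197 counts), whereas wild-type replicate 1, the highest of its genotype for Cxcl1, Cxcl2, Cxcl3 and Cxcl10, was the smallest wild-type library. The part of depth in this spread was not tested. In sEH-/- the spread between mice was wider than counting error: the coefficients of variation were 59.7%, 44.5% and 23.1% for Cxcl1, Cxcl2 and Cxcl3, where counting alone would give 11.8%, 9.32% and 6.68%. In wild-type they were 31.7%, 20.3% and 32.3% against 22.3%, 18.6% and 10.98% from counting.

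Cxcl9, Cxcl10 and Cxcl11 form a second cluster on chromosome 5, in 44139 bp on the minus strand. Cxcl9 spans bases 92321347 to 92328079, Cxcl10 bases 92346638 to 92348889 and Cxcl11 bases 92359544 to 92365485. The promoters of Cxcl9 and Cxcl10, those at hand in this cluster, are given as a description of their letters. The part of any site in the responses of these genes was not tested. The 250 bases before the start (GRCm38.p6, minus strand, 5′ to 3′) are chr5:92328080-92328329 for Cxcl9 and chr5:92348890-92349139 for Cxcl10, with matches of the κB consensus and of the core of the interferon-stimulated response element (ISRE, searched as GAAANNGAA on both strands) in capitals.
Cxcl9: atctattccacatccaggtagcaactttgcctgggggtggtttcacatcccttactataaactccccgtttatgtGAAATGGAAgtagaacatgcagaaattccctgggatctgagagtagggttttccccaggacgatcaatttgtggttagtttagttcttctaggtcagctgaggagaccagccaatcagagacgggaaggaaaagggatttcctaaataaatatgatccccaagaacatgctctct
Cxcl10: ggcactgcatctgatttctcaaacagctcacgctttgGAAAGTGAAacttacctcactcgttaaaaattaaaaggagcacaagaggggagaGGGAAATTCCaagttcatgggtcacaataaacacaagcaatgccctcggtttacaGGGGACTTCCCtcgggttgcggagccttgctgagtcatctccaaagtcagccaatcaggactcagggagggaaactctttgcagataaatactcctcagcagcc
The Cxcl9 window held 1 ISRE core match, from 175 to 167 bases before the start, and no full match of the κB consensus. Runs close to the consensus, such as gggatttcct in the Cxcl9 window, were not counted. The Cxcl10 window held an ISRE core match from 213 to 205 bases before the start and κB matches from 159 to 150 and from 104 to 94 bases before it. The ISRE core was found in 2342 of the 32851 promoters, or 7.13%, and among the other members with a promoter at hand it was found in Cxcl14. The windows of Cxcl1, Cxcl2 and Cxcl3 held no ISRE core match.

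Cxcl10, also called IP-10, had the largest log2 fold change of the members with more than a few counts. It had 302, 200 and 43 counts in sEH-/- against 21, 5 and 14 in wild-type, or 51.6, 40.3 and 9.95 against 4.61, 0.81 and 2.50 CPM. The lowest sEH-/- library, replicate 3, was closer to the wild-type libraries than to the other two of its genotype, yet lay above all of them. The means were 33.9 ± 21.5 and 2.64 ± 1.90 CPM (SD, n = 3), and the log2 fold change was 3.78 (SE 0.62, 95% interval 2.40 to 5.16, adjusted p = 0.0178, edgeR). On the fold scale that interval runs from 5.27 to 35.8. Among the members with counts in every library it also varied most within a genotype, by 5.18-fold in sEH-/- and 5.69-fold in wild-type from the lowest to the highest library. With limma-voom in place of edgeR its adjusted p was 0.0603, so that the call was lost. When 1 library was left out, the log2 fold change ran from 3.30 without wild-type replicate 2 to 4.39 without wild-type replicate 1, and the call was lost without wild-type replicate 2 (adjusted p = 0.0886) and without wild-type replicate 3 (adjusted p = 0.12, edgeR).

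Cxcl11, also called I-TAC, was near the detection limit in wild-type cells. It had 24, 7 and 5 counts in sEH-/- against 1, 1 and 0 in wild-type, so that the genotypes did not overlap but 1 genotype rested on 2 counts in all. The ratio of the summed, depth-scaled counts was 19.4 (36 against 2 counts, exact 95% interval 4.995 to 166, counting error only), and edgeR gave an adjusted p of 0.0334. The annotation lists the mouse gene as a polymorphic pseudogene, and the count concerns the transcript only. Both Cxcl10 and Cxcl11 lie inside Art3, a gene on the opposite strand with 4 counts in total over the 6 libraries, and the study counted reads on the correct strand and left out reads over several genes.

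Cxcl9, also called MIG, was the exception in its group. It had 727, 723 and 676 counts in sEH-/- against 768, 1022 and 966 in wild-type, or 124, 146 and 156 against 169, 166 and 173 CPM. The 3 wild-type libraries lay within a narrow band and all sEH-/- libraries lay below it. The means were 142 ± 16.4 and 169 ± 3.67 CPM (SD, n = 3), and the log2 fold change of -0.25 (SE 0.086, 95% interval -0.45 to -0.062) missed the threshold (adjusted p = 0.112, edgeR). The adjusted p stayed between 0.0635 and 0.302 in the 15 other settings, all with a negative log2 fold change between -0.32 and -0.16. Among the sEH-/- libraries the order of Cxcl9 was the reverse of that of Cxcl10: replicate 1 was the lowest for Cxcl9 and the highest for Cxcl10. In these sEH-/- libraries the order of Cxcl9 was also that of Cxcl16 and the reverse of the library totals, and Cxcl9 counts hardly followed those totals. In wild-type the Cxcl9 counts did follow the totals, which left the narrow band in CPM. The part of depth and of duplicate removal in the sEH-/- order was not tested.

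The contrast between the neighbours is plain as a ratio within each library. There were 41.5, 27.7 and 6.36 counts of Cxcl10 per 100 counts of Cxcl9 in sEH-/- replicates 1, 2 and 3, against 2.73, 0.49 and 1.45 in wild-type. The exact 95% counting intervals of the closest pair, 4.56 to 8.66 in sEH-/- replicate 3 and 1.68 to 4.21 in wild-type replicate 1, did not overlap. The log2 fold change of Cxcl10 exceeded that of Cxcl9 by 4.03. Because Cxcl9 carried most of the counts, the summed level of the interferon-induced group was 180, 187 and 168 CPM in sEH-/- and 173, 167 and 175 CPM in wild-type, which overlapped.

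Set against each other, the 2 groups did not separate. The mean log2 fold change was 2.09 over the 3 neutrophil-attracting genes (range 1.61 to 2.37, 3 of 3 called) and 2.51 over the 3 interferon-induced genes (range -0.25 to 3.998, 2 of 3 called), a difference of -0.42 given without a test. The medians were 2.29 and 3.78. Computed instead from the mean log2 CPM in each library, neutrophil-attracting minus interferon-induced was 0.47, 0.21 and 0.51 in sEH-/- against 0.26, 0.40 and 0.14 in wild-type. That is 0.40 ± 0.16 against 0.27 ± 0.13 (SD, n = 3), which overlapped, and the change had the opposite sign to that of the fitted means. The sign rests on Cxcl11 and its few counts: with Cxcl11 left out, a setting chosen after its counts were seen, the difference of the fitted means was 0.32. The size rests on Cxcl9 as well: without Cxcl9, a choice also made with its values known, the interferon-induced mean was 3.89. The median log2 fold change of all 8 members was 1.95, with 7 of 8 above 0, whereas over all genes tested the median was -0.00085 and 49.8% lay above 0.

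**Figure D2:**
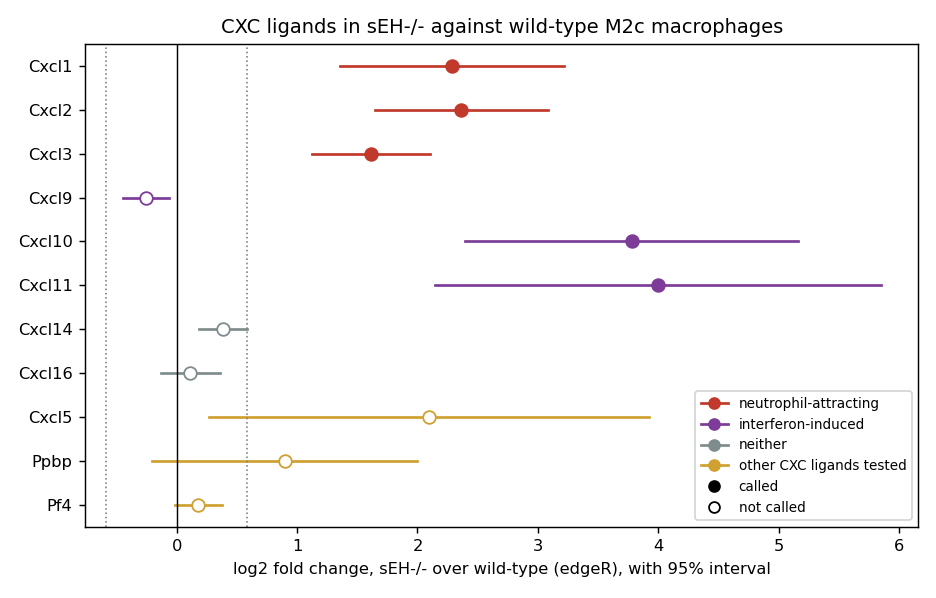
Log2 fold change, sEH-/- over wild-type, from edgeR with its 95% interval for the 8 listed chemokines and 3 further CXC ligands, with filled points for called genes and dotted lines at the 1.5-fold threshold in either direction. Cxcl1, Cxcl2, Cxcl3, Cxcl10 and Cxcl11 lie to the right of the threshold, Cxcl9 at -0.25 and Cxcl16 at 0.11.

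Cxcl14 differed by a small and even margin. This gene on chromosome 13 (bases 56288643 to 56296551, minus strand) had 463, 451 and 370 counts in sEH-/- against 311, 363 and 385 in wild-type, or 79.1, 90.8 and 85.6 against 68.2, 58.8 and 68.9 CPM. All sEH-/- libraries lay above all wild-type libraries once scaled for depth. The means were 85.2 ± 5.90 and 65.3 ± 5.65 CPM (SD, n = 3), with a log2 fold change of 0.38 (SE 0.090, 95% interval 0.18 to 0.58). Its adjusted p of 0.046 (edgeR) passed, but the fold change did not, and the gene was not called. The adjusted p was 0.0505 with limma-voom and ran from 0.0305 to 0.212 over all other settings.

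Cxcl16, on chromosome 11 (bases 70453983 to 70459984, minus strand), had the most counts of the 8 genes. It had 1619, 1695 and 1545 counts in sEH-/- against 1520, 1695 and 1637 in wild-type, or 276, 341 and 358 against 334, 275 and 293 CPM. The genotypes overlapped, at means of 325 ± 42.9 and 300.3 ± 30.2 CPM (SD, n = 3) and a log2 fold change of 0.11 (SE 0.11, 95% interval -0.13 to 0.36, adjusted p = 0.584, edgeR). The counts hardly followed the library totals. At a mean of 0.536 counts per exonic base the gene lay closest of the 8 to the ceiling of 1 count per base that the removal of duplicate reads may set, and counts corrected for such a ceiling gave a log2 fold change of 0.12. Its opposite-strand neighbour Zmynd15, which overlaps its start and was looked up after the values were seen, was called higher with a log2 fold change of 0.99 (adjusted p = 0.0255, edgeR).

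Levels of different genes were compared per kilobase of exon (CPM per kb). In wild-type cells the order was Cxcl16 at 99.4 ± 9.99, Cxcl9 at 56.0 ± 1.22, Cxcl14 at 35.8 ± 3.09, Cxcl3 at 4.57 ± 1.48, Cxcl2 at 2.63 ± 0.54, Cxcl1 at 2.08 ± 0.66, Cxcl10 at 1.17 ± 0.84 and Cxcl11 at 0.034 ± 0.030 CPM per kb (SD, n = 3). Of these neighbours, Cxcl2 and Cxcl1 overlapped, as did Cxcl1 and Cxcl10. In sEH-/- cells Cxcl16 stayed first at 107.6 ± 14.2 CPM per kb, and Cxcl9 at 47.1 ± 5.45 and Cxcl14 at 46.6 ± 3.23 overlapped. Cxcl10 then came next, at 15.1 ± 9.56 CPM per kb, in a run with Cxcl3 at 13.7 ± 3.15, Cxcl2 at 13.3 ± 5.91 and Cxcl1 at 9.85 ± 5.88 in which each overlapped the next.

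The make-up of the chemokine transcripts shifted accordingly. Cxcl9 and Cxcl16 together took 52.4%, 61.6% and 69.1% of the summed CPM per kb of the 8 genes in sEH-/- against 76.3%, 78.4% and 76.8% in wild-type. Cxcl1, Cxcl2 and Cxcl3 took 21.1%, 12.4% and 9.97% in sEH-/- against 5.63%, 4.13% and 3.93% in wild-type. The sum itself was 253, 262 and 246 CPM per kb in sEH-/- against 218, 186 and 201 in wild-type. Neither the shares nor the sums overlapped between the genotypes, and sEH-/- replicate 3 was the sEH-/- library closest to wild-type in both shares.

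**Figure D3:**
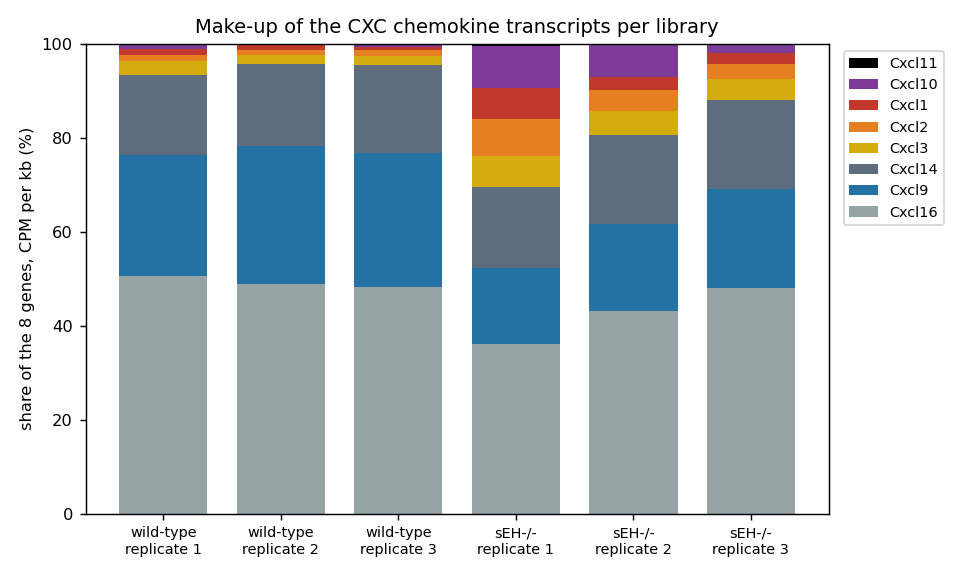
Share of each gene in the summed CPM per kb of the 8 chemokine genes, 1 stacked bar per library, on an axis from 0 to 100%. The Cxcl1, Cxcl2 and Cxcl3 segments together reach 21.1% in sEH-/- replicate 1 and at most 5.63% in a wild-type library.

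The genes whose profile over the 6 libraries was most like that of the chemokines were named by the root-mean-square difference of mean-centred log2 CPM, among the 10270 genes other than the members that averaged 50 counts or more. For the mean profile of Cxcl1, Cxcl2 and Cxcl3, these were Mmp9 (gelatinase B, difference 0.28), Il1b (interleukin 1β, 0.32), Carmil1 (0.32), F630028O10Rik (0.34) and Pde4b (a cAMP phosphodiesterase, 0.36), against a median difference of 1.05 over the pool. For Cxcl10 they were Trem1 (an amplifying receptor of myeloid cells, 0.40), Gpr84 (a receptor for medium-chain fatty acids, 0.55), Il1b (0.91), F630028O10Rik (0.98) and Mefv (pyrin, 1.04), against a pool median of 1.96. Trem1 had 264, 269 and 58 counts in sEH-/- against 20, 12 and 23 in wild-type, so that it shared with Cxcl10 a low value in sEH-/- replicate 3. Among the members themselves, Cxcl1 and Cxcl2 differed by 0.23 on this measure, Cxcl14 and Cxcl16 by 0.17, Cxcl9 and Cxcl16 by 0.20 and Cxcl9 and Cxcl10 by 2.10. The smallest difference, 0.15 between Cxcl1 and Cxcl11, crosses the groups and rests on the few counts of Cxcl11. Cxcl10 differed by 0.88 from Cxcl2 and by 0.99 from Cxcl1. All of these genes were ranked on the same 6 libraries, whose genotype difference enters the measure.

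Around the 2 clusters on chromosome 5, 0 of the other tested genes within 500 kb were called by edgeR, DESeq2 or limma-voom. Near Cxcl1 to Cxcl3, 12 other genes were in the table and 7 were tested, with log2 fold changes from -0.39 to 2.10 (median 0.26) and 1 at an unadjusted p below 0.05. Near Cxcl9 to Cxcl11, 19 were in the table and 13 tested, from -1.31 to 0.95 (median 0.11), with 5 at an unadjusted p below 0.05. The highest value near Cxcl1 to Cxcl3 belonged to Cxcl5, another ELR chemokine, which had 54, 12 and 3 counts in sEH-/- against 9, 5 and 2 in wild-type (log2 fold change 2.09, SE 0.82, adjusted p = 0.159, edgeR). Most of its sEH-/- counts came from replicate 1, and replicate 3 lay within the wild-type range. Ppbp, the platelet basic protein, had 50, 12 and 10 counts against 11, 15 and 14 (adjusted p = 0.312), and Pf4, platelet factor 4, had a log2 fold change of 0.18 (adjusted p = 0.261, edgeR). None of these 3 ligands was called by edgeR, DESeq2 or limma-voom, 1 had an unadjusted p below 0.05, and their median log2 fold change was 0.90.

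**Figure D4:**
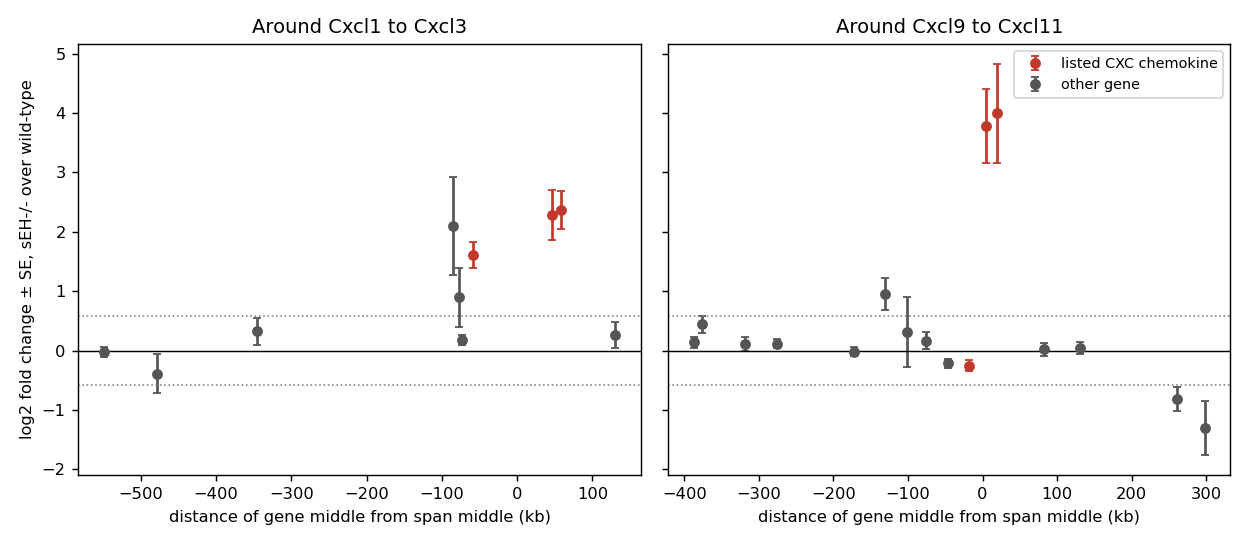
Log2 fold change ± SE (edgeR, sEH-/- over wild-type) of the tested genes within 500 kb of each chemokine cluster on chromosome 5, against the distance of the gene's middle from the middle of the cluster in kb, with dotted lines at the 1.5-fold threshold in either direction. Cxcl10 and Cxcl11 stand at 3.78 and 3.998, whereas Cxcl9 in the same cluster stands at -0.25 and the other genes around it at -1.31 to 0.95.

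Of the other genes of the pathway, 5 of 60 tested were called, all higher (8.33%). Over all genes tested, 1.51% were called higher and 2.61% in either direction. Ackr3, with 4, 1 and 2 counts in wild-type, passed the filter on low counts only through the sEH-/- libraries, and of the other 59 genes 4 were called. In all, 49 of the 60 had a log2 fold change above 0, with a median of 0.17, where 49.8% of all genes tested lay above 0. Among 8 CXC receptors, 7 were in the table and 4 were tested, with a median log2 fold change of 0.73. That median rests on few counts: Cxcr1, Cxcr3 and Ackr3 averaged 6.5, 6.67 and 10.7 counts per library. Cxcr4, the abundant receptor at a mean of 746 counts, had a log2 fold change of 0.33 (adjusted p = 0.079, edgeR). Ackr3, an atypical receptor that scavenges Cxcl11 and Cxcl12, had 32, 21 and 4 counts in sEH-/- and was called (log2 fold change 3.01, SE 0.71, adjusted p = 0.0466, edgeR). It was not called by limma-voom, after thinning to the smallest library, or when sEH-/- replicate 1 or 2 or wild-type replicate 2 or 3 was left out. Cxcr2, the receptor of the neutrophil-attracting ligands, and Cxcr6, the receptor of Cxcl16, had 0 or 1 count in every library. Cxcr3, the receptor of Cxcl9, Cxcl10 and Cxcl11, had 2 to 16 counts (adjusted p = 0.29, edgeR).

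Of 22 genes of Toll-like receptor 4 and NF-κB signalling, which include inhibitors and cofactors of NF-κB, 16 had a log2 fold change above 0 (median 0.24). Of the 22, 2 were called, both higher, where 1.51% of all genes tested were called higher, and 13 had an unadjusted p below 0.05. Cd14, Nfkb2 and Relb passed the adjusted p (0.0288, 0.0309 and 0.0408, edgeR) but not the fold change. Their log2 fold changes were 0.50, 0.37 and 0.46. Nfkbiz, an inducible nuclear cofactor of NF-κB, had 288, 239 and 130 counts in sEH-/- against 69, 118 and 102 in wild-type (log2 fold change 1.28, SE 0.19, adjusted p = 0.0143, edgeR). Nfkbie, the inhibitor IκBε, had 564, 519 and 386 counts against 305, 362 and 363 (log2 fold change 0.61, SE 0.087, adjusted p = 0.0109, edgeR). Both were higher in every sEH-/- library than in any wild-type library once scaled for depth.

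Of 18 genes of interferon signalling, 17 were tested and 0 were called by edgeR, DESeq2 or limma-voom, with 6 at an unadjusted p below 0.05, 14 above 0 and a median log2 fold change of 0.16. Jak1, the kinase shared by the interferon receptors, had a log2 fold change of -0.13 (adjusted p = 0.378), and Stat2 had one of 0.41 (adjusted p = 0.0508, edgeR). Ifnb1, which encodes interferon β, had 0 counts in all 6 libraries, and a count of 0 allows up to 3 counts per library. Of 9 genes of cytokine mRNA decay, Dusp1, a phosphatase that limits p38 MAP kinase, was called higher with 372, 408 and 202 counts against 180, 224 and 201 (log2 fold change 0.79, SE 0.17, adjusted p = 0.0351, edgeR), and the median of the 9 was 0.058. Of 6 proteases that cut or shed chemokines, 5 were tested, with a median of 0.15, and Mmp9 was called higher, with 603, 247 and 177 counts against 68, 102 and 98 (log2 fold change 1.995, SE 0.31, adjusted p = 0.016, edgeR). Adam10, which sheds Cxcl16, had a log2 fold change of 0.084 (adjusted p = 0.6, edgeR).

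The members' calls depended on which wild-type libraries entered the fit. Cxcl1, Cxcl2 and Cxcl3 were called in every setting that kept all 6 libraries, except in a test against the 1.5-fold threshold itself. Without wild-type replicate 2 the adjusted p of Cxcl1, Cxcl2, Cxcl3, Cxcl10 and Cxcl11 was 0.122, 0.0584, 0.0572, 0.0886 and 0.155, and without wild-type replicate 3 it was 0.133, 0.0926, 0.0936, 0.12 and 0.149, so that 0 members were called in either fit (edgeR, with 7 members at an unadjusted p below 0.05 in each). Those fits called 25 and 6 genes in all, against 360 with all libraries. The log2 fold changes of the 5 genes stayed positive, between 1.42 and 4.44 over all fits that left out 1 library.

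**Figure D5:**
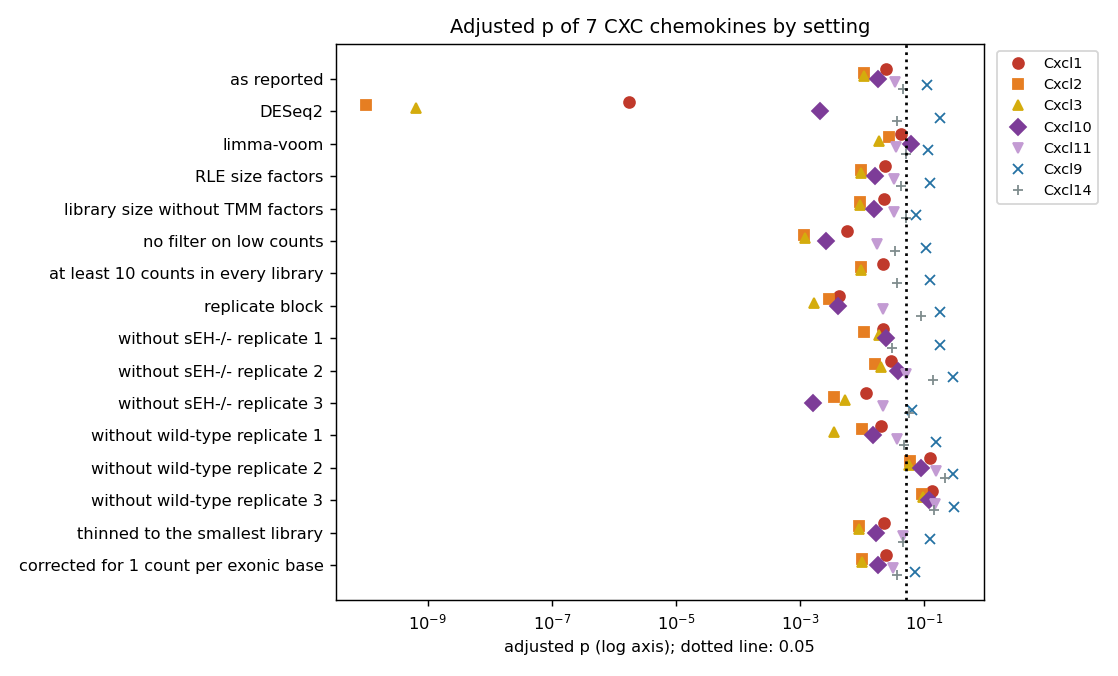
Adjusted p on a log axis of 7 of the chemokines under the reported fit and 15 other settings, 1 row per setting, with a dotted line at 0.05. The neutrophil-attracting genes, Cxcl10 and Cxcl11 cross to the right of the line when wild-type replicate 2 or 3 is left out, and Cxcl9 stays to the right throughout.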

How the data were processed

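Per the labels and the study's methods, the authors mapped quality-trimmed reads to the mm10 genome. Their gene counts are strand-specific and exonic, each read going to 1 gene at most, and leave out duplicates, reads with several genomic positions, rRNA and mitochondrial reads. The deposited table holds these raw counts per gene, without normalization. The submitters' processing notes name Trimmomatic 0.39, STAR 2.7.7a, Picard 2.21.7, featureCounts 1.6.5 and DESeq2 1.30.0, while the methods name other versions of some of these tools, and labels and methods also differ on the library kit. Removing multi-mapping reads can lower the counts of similar genes such as Cxcl1, Cxcl2 and Cxcl3, and removing duplicates can flatten abundant transcripts.

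Genotypes were compared with the quasi-likelihood test of edgeR 4.0.16 in R 4.3.3 (TMM factors, genotype as the only term) for the 13785 genes with a mean above 5 counts over the 6 libraries. Genes were called at a Benjamini-Hochberg adjusted p below 0.05 over all of these and a fold change above 1.5 in either direction. CPM use the TMM-normalized library sizes. The steps were tested on simulated data. DESeq2 1.42.0, limma 3.58.1 and the other settings of the closing section served as alternatives. An exact permutation test of 3 against 3 libraries cannot give a two-sided p below 0.1 and was not used. Exonic lengths came from GENCODE M21, which held 19286 of the 19309 identifiers, and promoters from RefSeq (GRCm38.p6), found for 6 of the 8 members (Cxcl11 and Cxcl16 are not shown). Libraries of 1 genotype differed by more than sampling noise, at a chi-square per degree of freedom of 2.27 to 4.91. The p-values set the genotype difference against the spread between 3 mice per genotype, with each gene's spread estimate drawn towards that of other genes.

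The members, gene lists and marker lists were chosen with earlier results of these data known. The genes named are the members, Ephx2, the called genes of each list (otherwise its most abundant ones), called genes near the 2 clusters and the 5 genes most like each profile. Others, such as Cxcl5, Cxcr1, Cxcr2, Cxcr3, Cxcr4, Cxcr6, Cd14, Nfkb2, Relb, Ifnb1, Adam10, Zmynd15, Art3, Lyz2, Cd68 and the neutrophil markers other than Csf3r and Mmp8, were named after their values were seen. Markers of lymphocytes and erythroid cells, the neutrophil markers Ly6g, Mpo and Retnlg, and Cxcl13, Cxcl15, Cxcl17 and Ackr1 were not analysed here, and Cxcl12, with 12 counts at most in a library, was not tested. Authors' fold changes and protein or animal data were not used here.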

Additional observations from a re-analysis of the deposited data

How the results depend on the processing

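No member's log2 fold change turned sign in any alternative. Of the members, 5 were called in the reported fit, 3 of the 6 that could be tested with at least 10 counts in every library, 0 in a test against the 1.5-fold threshold itself (glmTreat, 5 at an unadjusted p below 0.05), 6 with no fold change threshold, and 0 to 5 when 1 library was left out. The pathway genes called went from 5 to 0 with glmTreat (5 at an unadjusted p below 0.05), to 8 with no fold change threshold, and to between 0 and 6 when 1 library was left out, with 2 without sEH-/- replicate 2 and 0 without wild-type replicate 2 or 3. Over all genes the 360 calls became 10 with glmTreat, 553 with no fold change threshold, and 570, 625, 96, 25 and 6 without sEH-/- replicate 3, wild-type replicate 1, sEH-/- replicate 2, wild-type replicate 2 and wild-type replicate 3. The cause was not tested. Leaving out sEH-/- replicate 1 lowered the log2 fold change of Cxcl1 from 2.29 to 1.67. The difference between the neutrophil-attracting and interferon-induced means stayed between -0.55 and -0.27 in the 13 planned settings that gave it, and was 0.32 with Cxcl11 left out of the interferon-induced mean. Cxcl10 lost its call with limma-voom (adjusted p = 0.0603), and Cxcl11 had no adjusted p in DESeq2 and was not tested with at least 10 counts in every library or without sEH-/- replicate 1. With the replicate number as a replicate block, 5 members, 5 pathway genes and 234 genes in all were called. Deviations of same-numbered libraries from their genotype means correlated at -0.0818, -0.26 and -0.0367 over all genes tested. Replicate 1 was the highest library in both genotypes for Cxcl1, Cxcl2, Cxcl3 and Cxcl10, but not for Cxcl9, Cxcl14 or Cxcl16. Whether the numbers pair the libraries cannot be told from these values. With 3 libraries per genotype, and Cxcl11 at 2 wild-type counts in all, depth limits what can be said of the smallest transcripts.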
